A study of Sus scrofa with 19 samples.

Results

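The transcripts described here are those of the striated muscle actins ACTA1 and ACTC1 and of the sarcomeric alpha-actinins ACTN2 and ACTN3, in RNA-seq counts of porcine myocardium. The 4 genes were found by symbol in the authors' table of results and followed by their Ensembl identifiers into the raw count files. They are 4 of the 25879 genes of those files. They were chosen after their levels in these libraries were known, so their levels and fold changes are given as a description and without a test, and tests are given for other genes of the thin filament and Z-disc.

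Bulk RNA from 19 pigs labelled as female large whites was sequenced with 1 library per animal. The DOX group (n = 5) received doxorubicin, an anthracycline cytostatic drug, in 3 cycles of 60 mg/m2, and the liposomal form Myocet was given at that dose to the MYO group (n = 5). Both were sampled from the anterior wall after 3 months, since the animals became ill. The RemoLV group (n = 3) had a coronary occlusion of 90 min with reperfusion, and the remote, non-infarcted posterior wall was taken 6 months later. In the Hyper group (n = 3) a stent that did not grow with the juvenile animal narrowed the descending thoracic aorta, and the anterior wall was taken after 6 months. The Control group (n = 3, anterior wall, 6 months) is called sham-operated in the labels and untreated in the study's methods. DOX and MYO data came from an earlier study by the same authors, so the origin of the libraries, the shorter follow-up and the drug cannot be told apart for these groups, and only RemoLV was sampled from the posterior wall.

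Actin is the protein of the thin filament, on which myosin pulls, and alpha-actinin crosslinks thin filaments of neighbouring sarcomeres in the Z-disc. ACTC1 is the main actin of the fetal and adult heart in many mammals, and ACTA1 is the main actin of skeletal muscle that the heart also makes, with a share that differs between species and with load. ACTN2 is the alpha-actinin of cardiac muscle and is also made in skeletal fibres, and ACTN3 is that of fast skeletal fibres. Serum response factor (SRF) binds the CArG box of muscle actin genes together with the coactivators MYOCD and MRTFA, and TEAD factors bind the motif CATTCC.

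The genes lie on 3 chromosomes of the assembly Sscrofa11.1, with coordinates from its RefSeq annotation. ACTA1 (ENSSSCG00000010190) is at chr14:60412651-60415687 on the plus strand and ACTC1 (ENSSSCG00000004803) at chr1:136281119-136286551 on the plus strand. ACTN2 (ENSSSCG00000010144) is at chr14:54670727-54742717 on the minus strand and ACTN3 (ENSSSCG00000038323) at chr2:5860386-5873779 on the minus strand. The coding sequences of both actins are 1134 bases long and identical at 984 positions (86.8%). The longest coding stretch that the 2 actins share without a difference is 44 bases, and ACTA1 shares up to 73 bases with the cytoplasmic actin ACTB. A read that lay inside such a stretch could not be given to 1 gene by it, and the handling of reads with several matches is not given in the sources used here. The coding sequences of ACTN2 and ACTN3 were less alike, with 74.3% identical columns in a global alignment and no shared stretch over 32 bases.

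The start regions of the actin genes are shown at their CArG boxes, since several genes of that pathway are described below. Within 300 bases on each side of the annotated transcript start, ACTA1 and ACTC1 each had 1 CArG box, marked by capitals with 10 bases on each side. That of ACTA1 began 95 bases before the start of the RefSeq transcript used here, which is base 60412942. The stretch printed below, with the flanks, is chr14:60412837-60412866. The annotated gene begins earlier, at base 60412651, so the box lies inside its span. The box of ACTC1 lay inside the annotated first exon, beginning at base 69 of the transcript. Its printed stretch, with the flanks, is chr1:136281177-136281206.
ACTA1: tgcccaacacCCAAATATGGctcgagaagg
ACTC1: gcgaaggcgaCCAAATAAGGcaaggtggcc

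A CArG box was found in 2.59% of the windows of this size around 46010 RefSeq mRNA starts. CATTCC, searched on both strands, was present once in the ACTA1 window, at position -68, and in 21.5% of all windows. TATAAA, searched on both strands, began at position -28 in ACTA1 and at base 147 of the annotated transcript in ACTC1, and 16.7% of all windows held it. None of the 3 motifs was in the windows of ACTN2 or ACTN3. A match of letters is a description of the sequence and not of binding.

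Library totals ranged from 9527710 to 20370209 counts, and the 3-count floor of a library corresponded to 0.169 to 0.267 CPM (counts scaled to a common library total of 1e+06). The names in the 2 kinds of file conflicted. The expression columns of the authors' table ranked genes in the order of exactly 1 count file each, and for 8 of 19 columns that file carried the label of another group, with Control and RemoLV exchanged and 1 DOX library exchanged with 1 MYO library. The groups below are those of the file labels, and which of the names are right was not settled here. The fold changes and p-values in the authors' table were not used for this question. The 3 libraries labelled RemoLV stood apart from the other 16. In them the atrial light chain MYL4 was at 6029 to 8130 CPM, against at most 21.9 CPM elsewhere, and the ventricular light chain MYL2 was at 18.6 to 115 CPM, against at least 8975 CPM elsewhere. The ventricular factor IRX4 had 0 to 0.178 CPM in them. The 4 listed ventricular markers were all lower in RemoLV than in Control, but by unequal amounts. MYH7, the slow myosin heavy chain, was at 22349 to 25986 CPM in RemoLV, against at least 31944 CPM in Control. MYL3 was at 2057 to 3030 CPM, against at least 4460 CPM. The sum of the list was 25019 to 29131 CPM in RemoLV and 49995 to 74431 CPM in Control. The part of these markers in the results below was not tested. The ranges over all libraries are also given without them.

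ACTA1 was the most abundant of the 4 transcripts in every library not labelled RemoLV. In Control it was at 16559, 11276 and 15718 CPM, and in Hyper at 10293, 14232 and 13586 CPM. In DOX it was at 12787, 11918, 11634, 9361 and 8631 CPM, and in MYO at 12583, 13778, 9274, 10656 and 10896 CPM. The ranges of these 4 groups overlapped, and after TMM scaling Control 1 and Control 3 were above every other library. Their TMM factors were 0.735 and 0.696, and on library totals alone they were at 12165 and 10941 CPM, within the range of DOX (9179 to 13344 CPM) and MYO (9885 to 13595 CPM). In RemoLV it was at 1837, 3678 and 3334 CPM, below all 16 other libraries, of which the lowest was at 8631 CPM. The means ran from Control (14518 ± 2839, SD, n = 3) through Hyper (12703 ± 2112, n = 3), MYO (11438 ± 1759, n = 5) and DOX (10866 ± 1778, n = 5) to RemoLV (2950 ± 979, n = 3). Neighbours in this order did not differ beyond their spread except DOX and RemoLV. On library totals alone the first 4 groups changed places, with 12199 CPM in MYO, 11590 CPM in DOX, 11330 CPM in Hyper and 11327 CPM in Control, and RemoLV was at 3345 CPM, so only the place of RemoLV held under both scalings. ACTA1 ranked between place 9 and place 22 among all genes by mean CPM within a group.

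ACTC1 had the reverse order of groups at its ends. In RemoLV it was at 9299, 9809 and 8868 CPM, above every other library. In Control it was at 2418, 2927 and 1056 CPM and in Hyper at 2622, 4853 and 4458 CPM. The groups given anthracyclines were spread more widely, with 8121, 5554, 2107, 2289 and 4728 CPM in DOX and 2603, 4070, 5798, 5401 and 2846 CPM in MYO. The DOX mean was 4560 ± 2493 CPM (SD, n = 5), and DOX 1 and DOX 3 lay further apart than the means of DOX and Control. The mean was 9325 ± 471 CPM in RemoLV, 4144 ± 1447 CPM in MYO, 3978 ± 1190 CPM in Hyper and 2134 ± 967 CPM in Control. DOX, MYO, Hyper and Control overlapped with each other. Without the libraries labelled RemoLV, ACTC1 ranged from 1056 to 8121 CPM over 16 libraries. In bulk tissue, fewer cells of a type and less RNA per cell cannot be told apart.

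**Figure D1:**
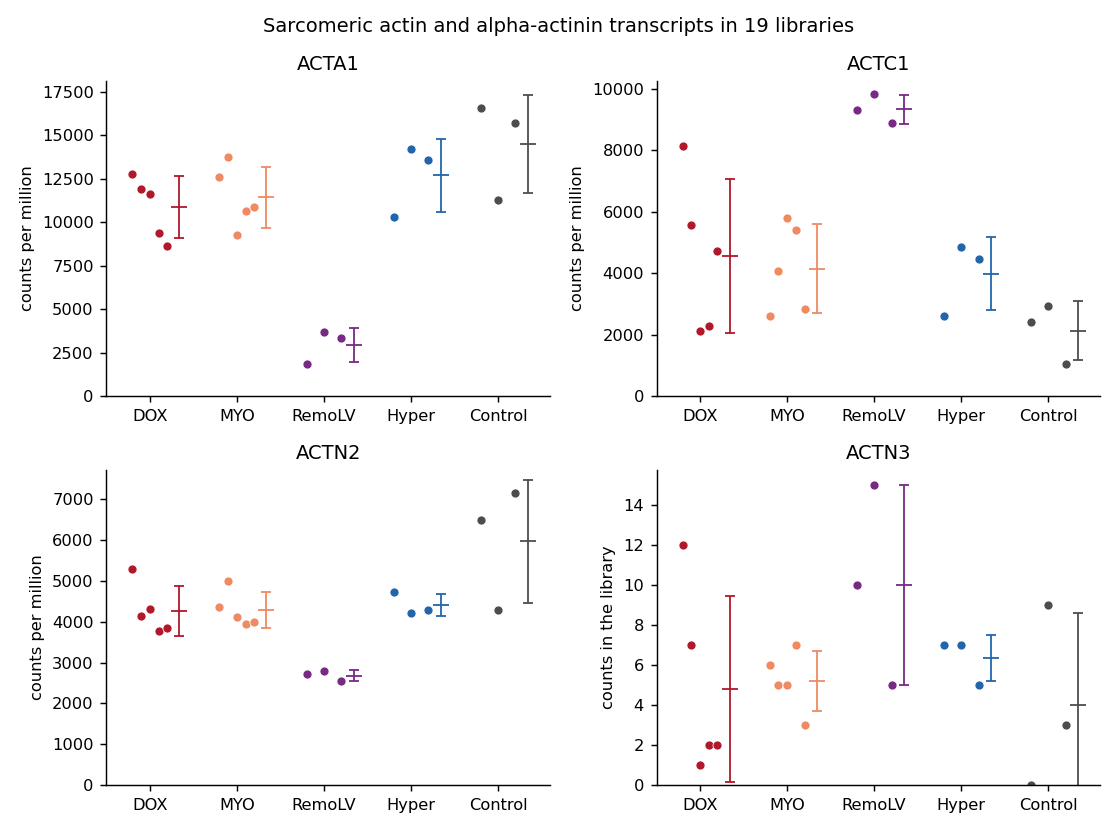
Level of each transcript (y axis, CPM, or counts for ACTN3) in every library (points) of the 5 groups on the x axis, with the mean ± SD beside the points. The 3 RemoLV libraries are the lowest for ACTA1 (1837 to 3678 CPM) and ACTN2 and the highest for ACTC1 (8868 to 9809 CPM), and ACTN3 has at most 15 counts in any library.

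The ratio of ACTA1 to ACTC1 counts within a library does not depend on how libraries are scaled. It was 6.85, 3.85 and 14.9 in Control, 3.93, 2.93 and 3.05 in Hyper, and 0.198, 0.375 and 0.376 in RemoLV. In DOX it was 1.57, 2.15, 5.52, 4.09 and 1.83, and in MYO 4.83, 3.38, 1.60, 1.97 and 3.83. ACTA1 thus exceeded ACTC1 in 16 of 16 libraries outside RemoLV and was below it in 3 of 3 RemoLV libraries. Of the 16, Control 3 had the highest ratio and DOX 1 the lowest. The mean ratio was 8.53 ± 5.70 in Control (SD, n = 3), 3.30 ± 0.543 in Hyper (n = 3), 3.12 ± 1.34 in MYO (n = 5), 3.03 ± 1.71 in DOX (n = 5) and 0.316 ± 0.103 in RemoLV (n = 3). Without Control 3 the Control mean was 5.35. Hyper, MYO and DOX did not differ beyond their spread, and Control overlapped with all 3 of them through Control 2.

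The summed level of ACTA1 and ACTC1 varied less than their ratio. It was 16652 ± 2389 CPM in Control (SD, n = 3), 16681 ± 3303 CPM in Hyper (n = 3), 15581 ± 1513 CPM in MYO (n = 5), 15426 ± 3728 CPM in DOX (n = 5) and 12275 ± 1178 CPM in RemoLV (n = 3). The RemoLV sums (11136 to 13487 CPM) overlapped with those of DOX and Hyper and lay below those of MYO and Control. ACTA1 made up 86.8% of the sum in Control, 76.5% in Hyper, 73.4% in MYO, 71.8% in DOX and 23.7% in RemoLV on average. ACTA1 and ACTC1 transcripts differ little in length, at 1482 and 1559 bases, so these shares hold closely per length as well. On the scale of CPM per kilobase of RefSeq transcript, Control had a mean level of 9796 for ACTA1 and 1369 for ACTC1, and RemoLV 1990 and 5982.

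**Figure D2:**
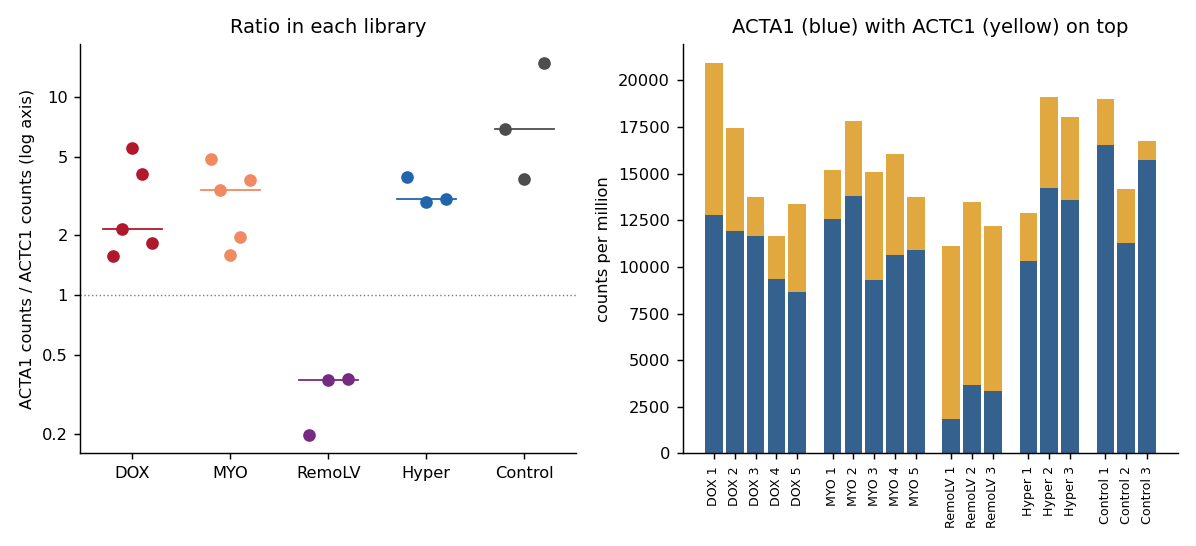
Left, ACTA1 counts divided by ACTC1 counts in each library (points, log axis) with the group median (line) and a dotted line at 1; right, CPM of ACTA1 (blue) with ACTC1 (yellow) stacked on top for each library on the x axis. All 3 RemoLV libraries lie below 1 (0.198 to 0.376) and the other 16 above it (1.57 to 14.9).

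ACTN2, the main crosslinker of the cardiac Z-disc, was at 6492, 4281 and 7152 CPM in Control and at 4719, 4204 and 4298 CPM in Hyper. In DOX it was at 5296, 4140, 4303, 3764 and 3836 CPM and in MYO at 4354, 5010, 4115, 3940 and 4001 CPM. After TMM scaling Control 1 and Control 3 were above every other library, while Control 2 lay within the range of DOX, MYO and Hyper. On library totals alone they were at 4769 and 4979 CPM, below DOX 1 (5312 CPM). In RemoLV it was at 2713, 2787 and 2540 CPM, below the other 16 libraries, as it was on library totals (2990 to 3070 CPM, against at least 3507 CPM). The means were 5975 ± 1504 CPM in Control (SD, n = 3), 4407 ± 274 CPM in Hyper (n = 3), 4284 ± 436 CPM in MYO (n = 5), 4268 ± 615 CPM in DOX (n = 5) and 2680 ± 127 CPM in RemoLV (n = 3). Per kilobase of transcript, ACTN2 had a mean level of 1255 CPM in Control and 563 CPM in RemoLV, below the mean levels of both actins on that scale.

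ACTN3 was close to the limit of detection in all groups. Control had 0, 9 and 3 counts, Hyper 7, 7 and 5, and RemoLV 10, 15 and 5. DOX had 12, 7, 1, 2 and 2 counts and MYO 6, 5, 5, 7 and 3. The groups overlapped, and the highest level was 0.846 CPM in RemoLV 2. On the scale of CPM per kilobase, the group means of ACTN3 were 0.0837 to 0.224.

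The fitted log2 fold changes against Control carried the order of the means. The value of ACTA1 was -2.30 (SE 0.24) for RemoLV, -0.42 (SE 0.21) for DOX, -0.34 (SE 0.21) for MYO and -0.19 (SE 0.23) for Hyper. That of ACTC1 was 2.13 (SE 0.47) for RemoLV, 1.10 (SE 0.42) for DOX, 0.96 (SE 0.41) for MYO and 0.90 (SE 0.45) for Hyper. That of ACTN2 was -1.16 (SE 0.17) for RemoLV, -0.49 (SE 0.15) for DOX, -0.48 (SE 0.15) for MYO and -0.44 (SE 0.16) for Hyper. ACTN3 differed by 1.34 (SE 0.75) in RemoLV on counts near the floor. The 4 comparisons share the Control libraries.

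Of the 4 members, 3 did not overlap between RemoLV and Control, where 52.1% of the 13552 genes tested did not overlap, and 0 of 4 were without overlap in the other comparisons. The share of all genes without overlap was 34.5% for DOX and 37.6% for MYO against Control, 9.75% for Hyper against Control, 1.47% for DOX against MYO and 21% for DOX and MYO together against Hyper. No reading is drawn from these counts, since the members were chosen from these levels.

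Scaling bore on the smaller of these differences. With library totals alone, the median log2 fold change of all genes moved to 0.45 for DOX, 0.44 for MYO, 0.52 for RemoLV and 0.17 for Hyper, from values of at most 0.03 after TMM scaling. ACTA1 then stood at 0.03 in DOX and 0.11 in MYO and so changed sign, at 0.00 in Hyper and at -1.76 in RemoLV, and ACTN2 at -0.03 in DOX, -0.02 in MYO, -0.23 in Hyper and -0.61 in RemoLV. All of these values were below the shifted median of all genes, whereas ACTC1 was above it, at 1.44, 1.32, 1.00 and 2.57 in DOX, MYO, Hyper and RemoLV.

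The names decided the direction in the comparisons with Control. With the groups of the table names, the libraries called RemoLV here serve as Control. The log2 fold change of ACTA1 against Control was then 1.98 (SE 0.22) for DOX, 1.85 (SE 0.22) for MYO, 2.30 (SE 0.24) for RemoLV and 2.11 (SE 0.24) for Hyper. That of ACTC1 was -1.17 (SE 0.39), -1.03 (SE 0.39), -2.13 (SE 0.47) and -1.23 (SE 0.45) in the same order, and that of ACTN2 was 0.71, 0.64, 1.16 and 0.72. DOX and MYO together against Hyper is the comparison that the exchange does not touch. In it ACTA1 differed by -0.19 (SE 0.18), ACTC1 by 0.13 (SE 0.36) and ACTN2 by -0.04 (SE 0.13), each within about 1 SE of 0. With library totals alone these were 0.07 for ACTA1, 0.39 for ACTC1 and 0.21 for ACTN2, so ACTA1 and ACTN2 changed sign. DOX and MYO differed by -0.07 (SE 0.18), 0.14 (SE 0.35) and -0.01 (SE 0.13) for these genes.

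**Figure D3:**
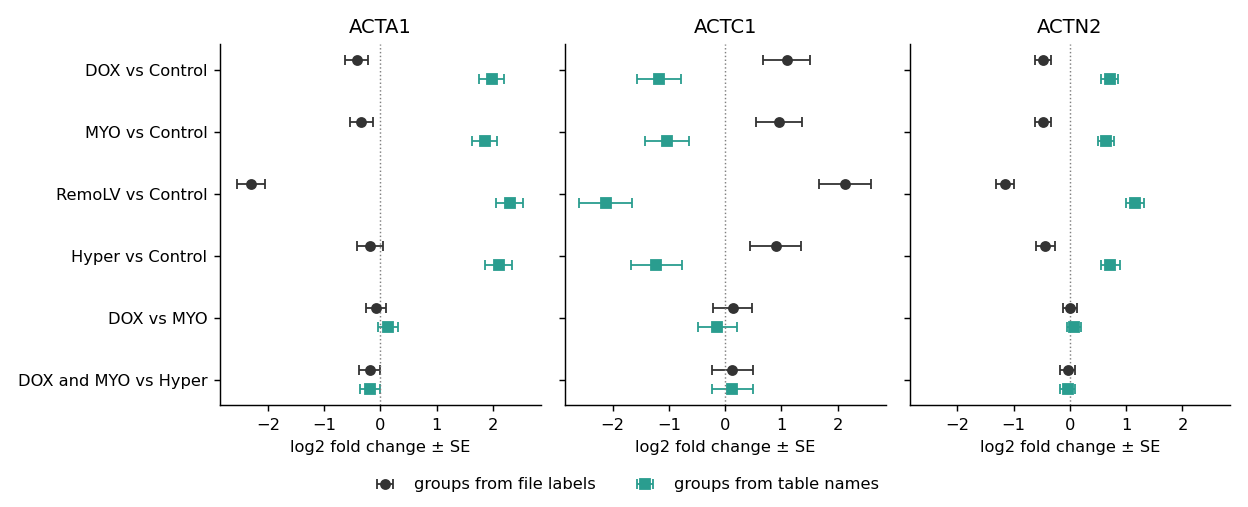
Log2 fold change ± SE (x axis) of ACTA1, ACTC1 and ACTN2 in 6 comparisons (y axis), with groups from the file labels (circles) and from the table names (squares). The signs against Control are opposite under the names, as for ACTA1 in RemoLV (-2.30 and 2.30), and DOX and MYO against Hyper lies near 0 under both.

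The markers of other cells moved with some of these levels. Of 15 listed skeletal muscle genes, 10 were matched, and their sum was 35.5 to 225 CPM in Control, 35.0 to 45.8 CPM in Hyper, 26.1 to 68.7 CPM in MYO, 19.3 to 117 CPM in DOX and 27.6 to 75.1 CPM in RemoLV. The high Control values were those of Control 1 and Control 3, the libraries with the most ACTA1 after TMM scaling, and came from MYL1 (165 and 182 CPM, against 24.4 CPM in Control 2) and CASQ1 (53.8 and 39.8 CPM, against 7.66 CPM). MYL1 fell against Control by 2.39 in DOX (adjusted p = 0.0108) and by 3.27 in MYO (adjusted p = 0.00158) on the log2 scale, and CASQ1 fell by 2.03 in RemoLV (adjusted p = 0.00663). PVALB had 0 counts in every library, TNNT3 at most 2 and MYBPC1 at most 1, and ACTN3, the fast-fibre alpha-actinin, had 0 and 3 counts in Control 1 and Control 3. Summed fibroblast markers were 820 to 1229 CPM in Control, 653 to 1331 CPM in Hyper, 1379 to 2020 CPM in MYO, 1408 to 2486 CPM in DOX and 2835 to 3118 CPM in RemoLV. Of the 4 fibroblast markers, COL1A1 passed the test against Control in DOX (log2 fold change 1.28, adjusted p = 0.00240), MYO (1.16, adjusted p = 0.00437) and RemoLV (1.94, adjusted p = 0.000124). DCN was at -0.07 in DOX and 0.02 in MYO and passed in RemoLV (0.97, adjusted p = 0.000314), LUM passed in none of the 3, and PDGFRA was at -0.79 in DOX and fell by 1.19 in MYO (adjusted p = 0.00984), so the sums in DOX and MYO followed COL1A1. Of the atrial genes, the light chain MYL7 was at 59.1 to 111 CPM in Control, 172 to 1229 CPM in Hyper, 736 to 1193 CPM in MYO, 1080 to 2379 CPM in DOX and 3281 to 4770 CPM in RemoLV. SLN, sarcolipin, was at 43.7 to 91.9 CPM in RemoLV and at most 2.82 CPM elsewhere, with log2 fold changes against Control of -1.12 in DOX, -0.44 in MYO and -0.60 in Hyper that did not pass the test. MYL4 rose in DOX (2.28, adjusted p = 0.00602) and MYO (2.39, adjusted p = 0.00428) and was at -0.86 in Hyper (adjusted p = 0.574). Its levels were low, at 3.13 to 11.9 CPM in DOX and 2.30 to 21.9 CPM in MYO. Control was at 0.594 to 3.10 CPM and overlapped with MYO. The ventricular IRX4 rose in DOX (1.14, adjusted p = 0.000125) and MYO (1.10, adjusted p = 0.000170) as well, while MYL2, MYL3 and MYH7 did not pass the test there. Of the 4 cardiomyocyte markers measured, TNNT2, TNNC1 and RYR2 fell in DOX, MYO and RemoLV, with log2 fold changes in RemoLV of -0.83, -1.26 and -1.02, and MYBPC3 rose in DOX (0.29) and MYO (0.38) and fell in RemoLV (-0.33). Their sum was 14199 to 15261 CPM in RemoLV, 19195 to 21527 CPM in DOX, 20101 to 22935 CPM in MYO, 23974 to 26839 CPM in Hyper and 21270 to 28767 CPM in Control. The 8 blood, endothelial and macrophage markers went in both directions, in DOX for instance CSF1R at 1.12 (adjusted p = 0.00169), CD163 at -1.05 (adjusted p = 0.00511), PECAM1 at -0.37 (adjusted p = 0.0199) and HBB at -2.33 (adjusted p = 0.0347). Of the 4 smooth muscle markers, SMTN rose in DOX (0.52) and MYO (0.59), and none passed in RemoLV. The part of these cell types in the levels of the actins was not tested.

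The other actins and alpha-actinins were less abundant than ACTA1, ACTC1 and ACTN2 in group means per kilobase of transcript. The cytoplasmic actins ACTB and ACTG1 form the cytoskeleton of all cells, ACTA2 and ACTG2 are smooth muscle actins, and ACTN1 and ACTN4 are the alpha-actinins of non-muscle cells. On that scale, their highest group mean was 392 CPM, for ACTG1 in DOX, against 897 CPM for ACTN2 in DOX and 563 CPM in RemoLV. Before division by length, ACTG1 was at 1767 CPM in DOX 1 and at most 680 CPM in the other DOX libraries. Against Control, 1 of the 6 genes rose in DOX, beside 42.1% of all genes called. In MYO 0 of 6 were called by edgeR, beside 42.4%, and 0 had an unadjusted p under 0.05. In RemoLV 1 of 6 fell, beside 47.2%. ACTB rose in DOX by a log2 fold change of 0.66 (SE 0.23, adjusted p = 0.0301), with 1191, 716, 551, 616 and 526 CPM in DOX against 562, 327 and 477 CPM in Control. The groups overlapped, and the call was lost without DOX 1 (adjusted p = 0.0802), without Control 2 (0.137), without Control 3 (0.0702) and with only the 2 groups in the fit (0.102). ACTN4 fell in RemoLV by 0.63 on the log2 scale (SE 0.18, adjusted p = 0.00887), with 169, 171 and 178 CPM against 313, 178 and 308 CPM. Control 2 was at the level of RemoLV, and the call was lost without Control 1 (adjusted p = 0.0518) or Control 3 (0.0520) and with only the 2 groups in the fit (0.05004).

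In DOX and MYO against Hyper, 3 of these 6 genes rose, beside 32.6% of all genes called in either direction and 15.8% called higher. ACTN4 was at 290 to 405 CPM in DOX and 286 to 390 CPM in MYO, against 172, 229 and 209 CPM in Hyper. These groups did not overlap, and the log2 fold change was 0.70 (SE 0.15, adjusted p = 0.00207). ACTN1 rose by 0.66 (SE 0.18, adjusted p = 0.0103) and ACTB by 0.78 (SE 0.22, adjusted p = 0.0106), also without overlap of the libraries. Without Hyper 1 the adjusted p of ACTB was 0.0725, and without Hyper 2 that of ACTN1 was 0.0534. ACTG1 differed by 0.84 (SE 0.33, adjusted p = 0.0602), ACTG2 by 1.34 (SE 0.69, adjusted p = 0.146) and ACTA2 by 0.40 (SE 0.34, adjusted p = 0.392). Of the 4 fibroblast markers, COL1A1 rose in the same comparison (1.23, adjusted p = 0.00257), while DCN was at -0.16, LUM at 0.18 and PDGFRA at 0.48 without passing the test. Some markers of other cell types passed as well. Among them were the smooth muscle genes CNN1 at 1.25 (adjusted p = 0.0447) and SMTN at 0.29 (adjusted p = 0.0233) and the endothelial VWF at 0.40 (adjusted p = 0.0179). The macrophage genes were CD68 at 0.73 (adjusted p = 0.0427), CSF1R at 0.61 (adjusted p = 0.0430) and CD163 at -0.68 (adjusted p = 0.0375). Other members of these lists overlapped, as the smooth muscle MYH11 at 28.9 to 108 CPM in DOX and MYO and 43.9 to 71.4 CPM in Hyper. TAGLN overlapped too. The atrial MYL4 was at 2.30 to 21.9 CPM in DOX and MYO and 0.550 to 1.54 CPM in Hyper. The ventricular IRX4 was at 19.3 to 27.7 CPM and 8.38 to 10.3 CPM. The part of all these cell types in the differences was not tested.

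The partner genes of the members were taken from 6 lists of 58 genes, of which 55 were matched in the count files and 54 passed the filter on low counts. In DOX against Control, 29 of 54 passed the FDR threshold of 0.05, 8 higher and 21 lower, beside 42.1% of all genes tested (21% higher and 21.1% lower). In MYO against Control, 28 passed, 5 higher and 23 lower, beside 42.4% of all genes (20.7% higher and 21.7% lower). In RemoLV against Control, 31 passed, 3 higher and 28 lower, beside 47.2% of all genes (23.1% higher and 24% lower). The median log2 fold change of the partner genes was -0.26 in DOX, -0.35 in MYO and -0.61 in RemoLV, with 0.03, 0.02 and 0.02 over all genes. When libraries were scaled by their totals alone, the calls were 17 higher and 6 lower in DOX, 16 and 6 in MYO and 12 and 12 in RemoLV. With the table names they were 23 higher and 5 lower in DOX (29.6% of all genes called), 17 and 2 in MYO (29.2%) and 28 and 3 in RemoLV (47.2%). In RemoLV against Control both groups are exchanged whole, so the directions turn by design. For DOX and MYO these are counts, and whether the same genes turned was not counted. Under the table names NEXN, for example, differed from Control by 0.68 in DOX and 0.97 in MYO, and NKX2-5 by 0.17 and 0.24 (adjusted p = 0.410 and 0.236). TEAD1 differed by -0.43 and -0.60 (adjusted p = 0.263 and 0.119), and SYNPO2 by -0.60 in DOX (adjusted p = 0.00585). The count in DOX was 17 without Control 3.

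The list of actin folding and modification holds the 8 chaperonin subunits that fold new actin, with SETD3 and NAA80, which modify it. In DOX and in MYO, 7 of its 10 genes fell and 1 rose, and in RemoLV 8 fell and 1 rose, beside 42.1%, 42.4% and 47.2% of all genes called in either direction. With the table names 5 rose and 1 fell for DOX, 3 rose and 0 fell for MYO, and 8 rose and 1 fell for RemoLV. The chaperonin subunit TCP1 was at 133, 114, 130, 117 and 124 CPM in DOX against 175, 148 and 186 CPM in Control, without overlap. Its log2 fold change was -0.46 in DOX (SE 0.10, adjusted p = 0.00195), -0.56 in MYO (SE 0.10, adjusted p = 0.000422) and -0.81 in RemoLV (SE 0.12, adjusted p = 3.45e-05). CCT2 fell by 0.56 in DOX and by 0.61 in MYO on the log2 scale, and CCT6A fell by 1.08 in RemoLV. Scaled by library totals, TCP1 was at -0.02 in DOX and -0.12 in MYO and CCT2 at -0.12 and -0.17, and these 4 calls were lost. NAA80, the enzyme that acetylates the actin N terminus, was the gene that rose. It was at 11.3, 8.55 and 8.89 CPM in Control, at 13.4 to 27.1 CPM in DOX, 11.9 to 28.5 CPM in MYO, and 24.8, 37.8 and 33.0 CPM in RemoLV. Its log2 fold change was 0.99 in DOX (SE 0.28, adjusted p = 0.00832), 1.08 in MYO (SE 0.28, adjusted p = 0.00479) and 1.74 in RemoLV (SE 0.30, adjusted p = 0.000168).

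Among the genes that cap, sever or measure thin filaments, 12 were tested. In DOX 5 fell and 1 rose, in MYO 7 fell and in RemoLV 7 fell, beside the same 42.1%, 42.4% and 47.2% of all genes, with the others not past the threshold. Under the table names 3 rose for DOX, 3 for MYO and 7 for RemoLV, and 0 fell. CFL2, the muscle cofilin that severs actin, was at 366, 346, 341, 330 and 390 CPM in DOX against 625, 506 and 773 CPM in Control, without overlap. It fell by 0.84 in DOX (SE 0.14, adjusted p = 0.000236) and by 0.71 in MYO (SE 0.14, adjusted p = 0.000859) on the log2 scale. CAPZA2, a subunit of the barbed-end capping protein of the Z-disc, fell by 0.75 in DOX (SE 0.15, adjusted p = 0.000906) and by 0.88 in MYO (SE 0.15, adjusted p = 0.000237). CAP2, the cyclase-associated protein that recycles actin monomers, fell by 0.98 in RemoLV (SE 0.12, adjusted p = 8.06e-06). WDR1, which aids cofilin, rose in DOX by 0.43 (SE 0.12, adjusted p = 0.00860), with 269 CPM in DOX 1 and 187 to 205 CPM in the other 4. On library totals, the DOX call of CAPZA2 (log2 fold change -0.30) and the MYO call of CFL2 (-0.27) were lost.

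NEB, the nebulin ruler of skeletal thin filaments, was at 26.8, 18.6 and 17.5 CPM in RemoLV and at 237, 9.44 and 340 CPM in Control. Its log2 fold change was -3.22 (SE 1.00, adjusted p = 0.0135), but the groups overlapped through Control 2, and without Control 3 the adjusted p was 0.0618. NEB was high in the libraries with high MYL1, Control 1 and Control 3, and the part of skeletal muscle RNA in it was not tested.

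Of 16 tested alpha-actinin partners of the Z-disc, 6 fell and 1 rose in DOX, 5 fell and 1 rose in MYO, and 8 fell and 1 rose in RemoLV. The share called was thus near or below that of all genes in DOX (42.1%) and MYO (42.4%), and in RemoLV 9 of 16 stood beside 47.2%. With the table names, 8 of the list rose and 3 fell for DOX, 9 rose and 1 fell for MYO, and 8 rose and 1 fell for RemoLV. NEXN, nexilin, which binds actin at the Z-disc, was at 637, 517, 618, 488 and 799 CPM in DOX and 733, 976, 712, 560 and 625 CPM in MYO against 1745, 1430 and 2135 CPM in Control. No library of DOX or MYO reached the lowest Control, and the log2 fold changes were -1.53 (SE 0.18, adjusted p = 7.75e-06) and -1.30 (SE 0.18, adjusted p = 4.01e-05). SYNPO2, a synaptopodin that binds alpha-actinin and filamin, fell by 1.47 in DOX (SE 0.15, adjusted p = 1.90e-06) and by 1.19 in MYO (SE 0.15, adjusted p = 1.66e-05). Its striated muscle relative SYNPO2L rose by 0.72 in DOX (SE 0.19, adjusted p = 0.00497) and by 0.96 in MYO (SE 0.19, adjusted p = 0.000633). SYNPO2L was at 437, 712 and 377 CPM in Control. DOX overlapped with Control through DOX 4 (681 CPM), and MYO, at 783 CPM or more, did not.

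In RemoLV the median log2 fold change of the Z-disc list was -0.91. PDLIM1, a LIM protein that binds alpha-actinin, was at 56.3, 87.1 and 70.7 CPM against 591, 340 and 560 CPM in Control and at least 338 CPM in every other library. Its log2 fold change was -2.80 (SE 0.20, adjusted p = 1.47e-08). PALLD, palladin, was at 340, 367 and 450 CPM against 126, 87.6 and 123 CPM, and rose by 1.78 (SE 0.16, adjusted p = 2.37e-07). MYOZ3, a calsarcin of fast muscle, had 1 count in each RemoLV library and 8, 57 and 4 counts in Control, so no fold is given, and its call (adjusted p = 0.0229) was lost without Control 2 (0.214) and without each RemoLV library (0.0534 to 0.0726).

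The transcription factors known to act on muscle actin genes moved in both directions. In DOX 4 of 10 rose and 3 fell, in MYO 3 rose and 4 fell, and in RemoLV 1 rose and 4 fell, beside 42.1%, 42.4% and 47.2% of all genes. Grouped by the table names, 3 rose and 1 fell for DOX, 1 rose and 1 fell for MYO, and 4 rose and 1 fell for RemoLV. NKX2-5, the cardiac homeobox factor, was at 72.1 to 88.6 CPM in DOX and 65.8 to 87.8 CPM in MYO against 39.0, 39.2 and 34.4 CPM in Control. It rose by 1.08 in DOX (SE 0.15, adjusted p = 4.52e-05), 1.03 in MYO (SE 0.15, adjusted p = 7.17e-05) and 0.85 in RemoLV (SE 0.17, adjusted p = 0.000496). SRF rose by 0.65 in DOX (SE 0.19, adjusted p = 0.0118), with 237 CPM in DOX 1, 108 to 164 CPM in the other 4 and 95.8, 97.6 and 96.3 CPM in Control. With only DOX and Control in the fit its adjusted p was 0.0615. MRTFA rose by 0.67 in MYO (SE 0.17, adjusted p = 0.00548), a call that was lost without Control 3 (adjusted p = 0.0502).

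TEAD1 was at 12.2 to 20.5 CPM in DOX and 13.3 to 19.6 CPM in MYO, against 45.8, 18.9 and 65.9 CPM in Control. It fell by 1.41 in DOX (SE 0.27, adjusted p = 0.000664) and by 1.51 in MYO (SE 0.28, adjusted p = 0.000382), with overlap through Control 2. In RemoLV it differed by -0.95 (SE 0.31, adjusted p = 0.0195), which was lost without RemoLV 1 (0.0572), RemoLV 3 (0.0771) or Control 3 (0.192) and with only the 2 groups in the fit (0.0960). MYOCD, the cofactor of SRF, was at 49.0, 19.3 and 47.9 CPM in Control and 15.8 to 18.7 CPM in MYO, where it fell by 1.198 (SE 0.25, adjusted p = 0.00108). It fell by 1.02 in RemoLV (SE 0.29, adjusted p = 0.00716), with 18.9, 18.4 and 19.9 CPM and overlap through Control 2. In DOX it differed by -0.67 (SE 0.25, adjusted p = 0.0372), a call lost with the replicate number as a block (adjusted p = 0.112), with only the 2 groups in the fit (0.114) and in 6 of 8 fits that left out 1 library, with the largest p without Control 3 (0.202). Under library totals the RemoLV differences of TEAD1 (-0.36), MYOCD (-0.44) and ACTN4 (-0.07) and that of MYOCD in DOX (-0.18) were not past the threshold.

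In Hyper against Control, edgeR called 0 of 54 partner genes and 0% of all genes, while 20 partner genes and 2418 of 13552 genes had an unadjusted p under 0.05, and DESeq2 called 2 partner genes. The smallest unadjusted p was that of PALLD (log2 fold change -0.56, SE 0.16, adjusted p = 0.135). Without Control 2 edgeR called 20 partner genes, and without Hyper 1 it called 6. With the table names it called 25, 21 higher and 4 lower, beside 35.8% of all genes. In DOX against MYO, 0 partner genes and 0% of all genes were called by edgeR and 0 partner genes by DESeq2, and 1 partner gene, MYOCD, had an unadjusted p under 0.05 (log2 fold change 0.52, SE 0.22, adjusted p = 0.695).

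DOX and MYO together against Hyper gave 17 of 54 partner genes, 9 higher and 8 lower, beside 32.6% of all genes (15.8% higher and 16.9% lower), with a median of -0.07 for the partner genes and 0.03 for all genes. The follow-up of 3 and 6 months and the origin of the libraries differ between these groups and cannot be told apart from the treatment. Under library totals the split was 16 higher and 2 lower, and with the table names 9 and 9, beside 32.7% of all genes. NEXN was at 1300, 1635 and 1119 CPM in Hyper, above all 10 libraries of DOX and MYO, and fell by 1.02 (SE 0.16, adjusted p = 0.000110) on the log2 scale. SYNPO2 fell by 0.93 (SE 0.13, adjusted p = 5.20e-05), and PALLD rose by 0.76 (SE 0.13, adjusted p = 0.000356), with 71.9, 72.6 and 84.1 CPM in Hyper and 102 to 154 CPM in the others.

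Of the transcription factors, NKX2-5 rose by 0.76 (SE 0.14, adjusted p = 0.000539) and SRF by 0.67 (SE 0.18, adjusted p = 0.00770) in DOX and MYO against Hyper. SRF was at 84.3, 81.2 and 95.0 CPM in Hyper and at 108 to 237 CPM in the 10 other libraries, without overlap. TEAD1 differed by -0.69 (SE 0.25, adjusted p = 0.0397), which was lost in 10 of 13 fits that left out 1 library, with the largest p without Hyper 1 (0.234). Of the chaperonin genes TCP1 fell by 0.37 (SE 0.09, adjusted p = 0.00574) and CCT7 by 0.27 (SE 0.08, adjusted p = 0.0110), and with library totals alone they stood at -0.11 and -0.02, not past the threshold. The calls of CFL2 (-0.46, adjusted p = 0.0108), TMOD3 (-0.32, adjusted p = 0.0218) and WDR1 (0.34, adjusted p = 0.0220) were lost without Hyper 1, at 0.178, 0.310 and 0.107, and those of TMOD3 (0.0586) and WDR1 (0.0659) also without Hyper 2. Library totals ended the calls of CFL2 (-0.20), TMOD3 (-0.05) and TEAD1 (-0.43).

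**Figure D4:**
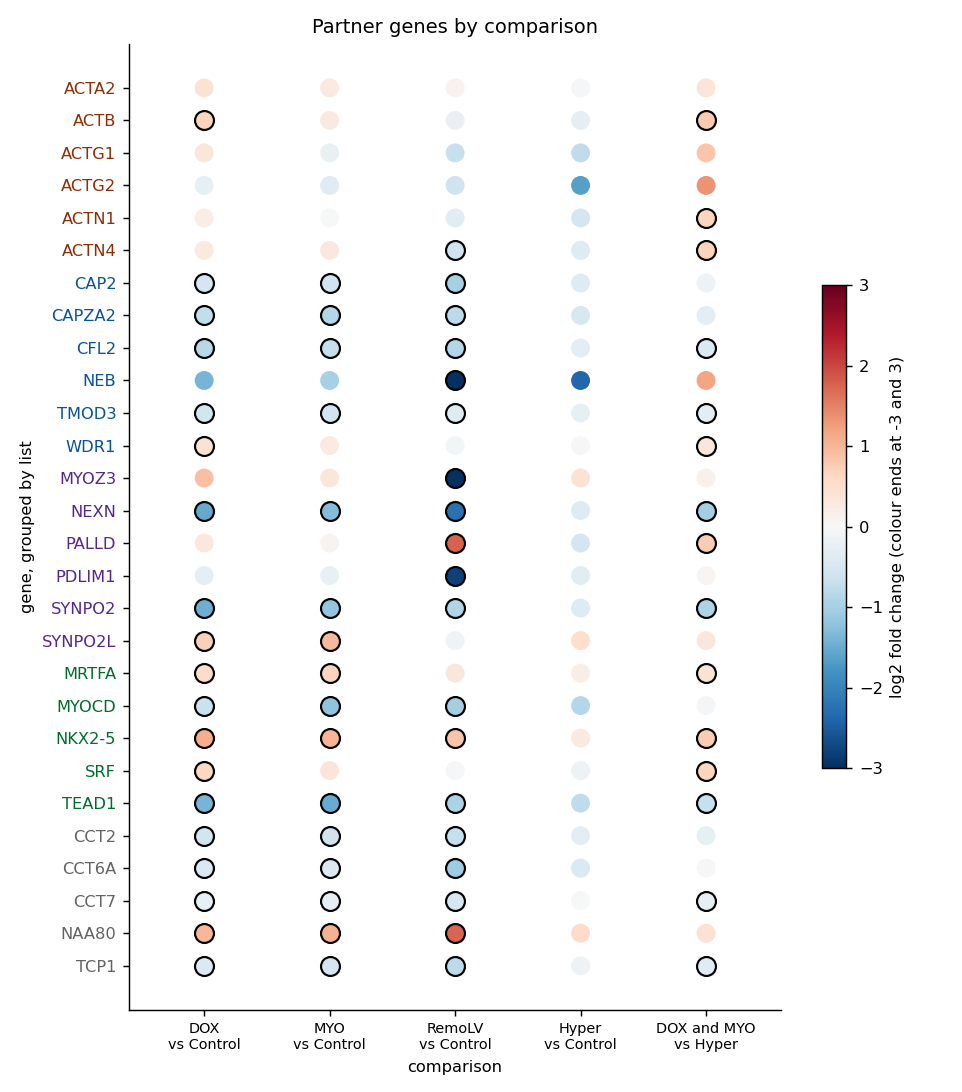
Log2 fold change (colour) of the partner genes named by rule (y axis, names coloured by list: brown, other actins and alpha-actinins; blue, thin filament ends and length; purple, Z-disc; green, transcription factors; grey, folding and modification) in 5 comparisons (x axis), ringed where the adjusted p was at most 0.05. TCP1, NEXN, SYNPO2, CFL2 and TEAD1 are ringed and lower in each column except Hyper against Control, which has no ring.

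The genes whose log2 CPM most resembled that of each member over the 19 libraries were sought among 9855 genes. For ACTA1 these were PDLIM1 (Pearson r = 0.967), LDB3 (0.965), a Z-disc protein that binds alpha-actinin, and BDH1 (0.964), an enzyme of ketone body metabolism. Without the libraries labelled RemoLV (n = 16) the values were 0.670, 0.881 and 0.546. For ACTN2 they were LARP1B (0.970), FAM120A (0.952) and HIGD1A (0.952), with 0.951, 0.886 and 0.908 without RemoLV.

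For ACTC1 the most similar genes were EFHD1 (0.922), LINGO1 (0.907) and CUL7 (0.906), with 0.892, 0.863 and 0.857 without RemoLV. EFHD1, a mitochondrial calcium-binding protein, was at 101, 72.8, 25.2, 33.2 and 91.4 CPM in DOX, where ACTC1 was likewise lowest in DOX 3 and DOX 4. In MYO it was at 33.4, 65.8, 137, 90.4 and 73.1 CPM, with the lowest value in MYO 1 and the highest in MYO 3, as for ACTC1. In Hyper it was at 39.2, 112 and 115 CPM, lowest in Hyper 1 like ACTC1. The other groups did not share the order, since EFHD1 was at 34.6, 27.5 and 17.6 CPM in Control, where ACTC1 was highest in Control 2, and at 136, 160 and 159 CPM in RemoLV, where ACTC1 was lowest in RemoLV 3. For ACTN3, with at most 15 counts a library, ZNF624 (0.840), UTP25 (0.811) and SPATA6L (0.807) came highest, and no reading is drawn from values this sparse. The points share libraries and group differences, so these correlations describe likeness of levels in these libraries only.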

How the data were processed

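RNA-seq counts of 19 libraries, 1 per pig, were used. The deposited files hold raw counts per Ensembl gene. The authors obtained them by STAR alignment of poly(A)-selected read pairs to Sscrofa11.1 and HTSeq 0.11.1 in union mode with the reverse strand setting. The release of the annotation is not given in the sources used here. The table that the authors deposited holds expression values on a log2 scale, used here only to read symbols and to match names. Its columns of fold changes and p-values of the authors' DESeq2 comparisons were not used.

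In R 4.3.3, counts were filtered with filterByExpr (13552 of 25879 genes kept), scaled with TMM in edgeR 4.0.16 and tested with the edgeR quasi-likelihood test in 1 model of the 5 groups. P-values were adjusted by the Benjamini-Hochberg method over all genes tested, with a threshold of 0.05, and DESeq2 1.42.0 was an alternative. SEs are absolute log2 fold changes divided by the square root of the F statistic. CPM are counts divided by the TMM-scaled total and multiplied by 1e+06. Each library is labelled as a separate animal. No pair of libraries agreed within sampling noise. The procedure was tested on simulated data. Depth limits ACTN3 most, and the floor covers counting error only.

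The members and lists were chosen with earlier results of these data known. Named were the 4 members, the 6 other actin and alpha-actinin genes, for each list and comparison up to 2 genes with the largest positive and up to 2 with the largest negative change past the threshold, marker genes, and the 3 genes most like each member, by log2 CPM with a prior count of 2 among genes with a mean of at least 2. IRX4 was chosen after its values were seen.

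Replicate numbers were checked by the correlation of deviations from the group means. They were 0.119 to 0.237 for the 3 pairs of DOX and Control, each library being closest to its own number, and not above 0.1 throughout for the other group pairs, so the block is given for DOX against Control where it changes a call. Sequences and coordinates are those of RefSeq for Sscrofa11.1, and alignments were made with Biopython. Alternatives were another size factor, library totals, no or a stricter filter, DESeq2, the block, fewer groups, the table names and leaving out each library. The coding sequence of the actins is not reported here.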

Additional observations from a re-analysis of the deposited data

Results flagged for a closer look

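Within DOX and MYO, 66 sets of 5 values were examined for a library far from the others, and 6 were found, where chance gives about 1 in 20. In DOX 1, ACTB was at 1191 CPM, ACTG1 at 1767 CPM and WDR1 at 269 CPM, each far above the other 4 DOX libraries, whose highest values were 716, 680 and 205 CPM. In DOX 3, CAP2 stood apart at 214 CPM within a group that was otherwise at 197 to 200 CPM. In MYO 2, NEB was at 213 CPM and TEAD1 at 19.6 CPM, against at most 94.1 and 15.0 CPM in the other 4. None of the 4 members or the ratio of ACTA1 to ACTC1 was among them, although DOX 1 also had the highest ACTC1 of its group.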

How the results depend on the processing

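The table names changed most. With them the mean ratio of ACTA1 to ACTC1 was 8.53 in RemoLV and 0.316 in Control, and without Control 3 that of Control by file label was 5.35. With the table names the log2 fold changes against Control reversed. They became 1.98, 1.85 and 2.30 for ACTA1 (DOX, MYO, RemoLV), -1.17, -1.03, -2.13 and -1.23 for ACTC1 (DOX, MYO, RemoLV, Hyper), 0.71, 0.64, 1.16 and 0.72 for ACTN2 in that order, and -1.34 for ACTN3 in RemoLV. With library totals alone ACTA1 reversed to 0.033 in DOX and 0.11 in MYO. Of 375 fold changes of members under alternatives other than the table names, 356 had the main sign. Leaving out 1 library moved 4 of 204 beyond the spread between libraries, those of ACTN3 without Control 2 (1.57, 1.82, 2.54 and 1.95 in DOX, MYO, RemoLV and Hyper), and library totals moved 6 of 24, those of ACTN2 in DOX and MYO (-0.03 and -0.02), ACTA1 and ACTN2 in RemoLV (-1.76 and -0.61) and both in DOX and MYO against Hyper (0.07 and 0.21). The partner genes called in Hyper against Control numbered 0 in edgeR, 2 with DESeq2 and 25 with the table names, and 0 to 20 when 1 library was left out, 20 being without Control 2. Leaving out 1 library gave 17 to 31 calls in DOX against Control, 17 being without Control 3. Of 104 partner counts, 99 were within 1.5 times the main count. The stricter filter of 10 counts in every library left ACTN3 out. The cause was not tested.

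With the replicate number as a block, the partner genes called were 24, 24, 31 and 0 in DOX, MYO, RemoLV and Hyper against Control, 0 in DOX against MYO and 13 in DOX and MYO against Hyper, with no block 29, 28, 31, 0, 0 and 17. Among the named genes, the block ended the call of MYOCD in DOX (adjusted p = 0.112) and, in DOX and MYO against Hyper, those of CFL2 (0.0544), TMOD3 (0.0601), TEAD1 (0.173) and CCT7 (0.0509).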
